A study of Mus musculus with 4 samples.

Results

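CREB1, CREM and ATF1 are closely related transcription factors that bind the cAMP response element (CRE), and Nr4a1, Nr4a2, Nr4a3, Sik1, Gem and Areg are genes classically induced by cAMP through that element. These 9 genes were followed in satellite cells, the stem cells that repair skeletal muscle, with and without the calcitonin receptor gene Calcr. Every probe set whose platform annotation gave 1 of these gene symbols was taken, which found 23 of the array's 45101 probe sets and 7 of the 9 genes. The only probe set listing Atf1 also lists the pseudogene Atf1-ps, so no value is given for Atf1, and Areg is named for no probe set in the annotation used.

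The cells came from 10-week-old mice and were sorted as YFP-positive cells 2 weeks after tamoxifen, without culture. Both genotypes carried the tamoxifen-dependent Cre Pax7-CreERT2, which acts in cells that express Pax7, together with a Rosa-YFP reporter, and both received tamoxifen. Control mice were Calcr+/+ and conditional knockout (cKO) mice were Calcr flox/flox, so the floxed allele is what separates the groups. Each group had 2 samples that the titles call biological replicates, on 1 array each, and the sources used here do not give the number of mice per sample. The values are linear MAS5 signals, 1 per probe set and array, and 4 arrays limit the precision of every comparison.

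In many cells, G protein-coupled receptors that raise cAMP activate protein kinase A, which phosphorylates CREB1 and its relatives on the CRE. The coactivators of the CRTC family join CREB on the promoter, and the kinase SIK1, itself a CRE target, phosphorylates the CRTC proteins and keeps them out of the nucleus. The NR4A proteins are orphan nuclear receptors that act as early response transcription factors and are also induced by signals other than cAMP, such as stress and calcium. The calcitonin receptor couples to cAMP in several cell types and marks quiescent satellite cells.

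The promoters of the 3 Nr4a genes are shown because they carry the element through which cAMP is known to reach these genes and because Nr4a2 and Nr4a3 had the largest differences between genotypes among the members' kept probe sets. Each sequence is the 250 bases before the annotated start in RefSeq, build GRCm38.p6, written 5′ to 3′ in the direction of the gene, and capitals mark the CRE half-site TGACG or its reverse complement CGTCA.
Nr4a1 (chr15:101266596-101266845, plus strand): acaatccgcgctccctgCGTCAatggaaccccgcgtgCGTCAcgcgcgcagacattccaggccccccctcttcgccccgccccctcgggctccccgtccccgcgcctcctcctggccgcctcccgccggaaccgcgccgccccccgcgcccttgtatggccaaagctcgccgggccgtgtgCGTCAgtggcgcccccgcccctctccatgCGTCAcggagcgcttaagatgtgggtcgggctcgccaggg
Nr4a2 (chr2:57124004-57124253, minus strand): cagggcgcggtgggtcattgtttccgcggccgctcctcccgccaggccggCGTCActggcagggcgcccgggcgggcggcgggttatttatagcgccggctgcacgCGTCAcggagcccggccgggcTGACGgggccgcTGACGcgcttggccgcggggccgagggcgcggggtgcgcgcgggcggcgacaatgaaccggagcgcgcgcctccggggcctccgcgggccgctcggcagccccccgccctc
Nr4a3 (chr4:48045055-48045304, plus strand): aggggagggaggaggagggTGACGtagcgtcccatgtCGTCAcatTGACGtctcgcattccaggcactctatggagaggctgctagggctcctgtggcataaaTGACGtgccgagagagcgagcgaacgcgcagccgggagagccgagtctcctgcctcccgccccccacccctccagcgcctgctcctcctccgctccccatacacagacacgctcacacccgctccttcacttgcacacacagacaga
Each of the 3 windows held 4 half-sites. The first base of each match lay 233, 213, 69 and 40 bases before the start in Nr4a1, 200, 144, 123 and 111 in Nr4a2, and 231, 213, 205 and 147 in Nr4a3. At least 4 half-sites were present in 45 of 32851 windows of the same length (0.137%), and at least 1 in 17.8%, counting both strands. The full palindrome TGACGTCA, found in 1.55% of windows and counted as 2 overlapping half-sites, was in none of the 3. RefSeq windows were taken for 6 of the 9 members. None was taken for Sik1, for Gem or for Crem, whose chromosome was left out of the search. This does not mean that RefSeq lacks a start for Crem. The Areg window held 1 palindrome and 3 half-sites, 2 of them within the palindrome, the Atf1 window 1 half-site and the Creb1 window 0. A match of letters describes the window and does not show that a factor binds there.

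Calcr itself was lower on both cKO arrays, with 1268 and 1424 in control replicates 1 and 2 and 568 and 684 in cKO replicates 1 and 2 (log2 difference -1.11, SE 0.25, limma adjusted p = 0.99999). Whether it reads the deleted part of the gene is not stated, so it checks the labels only by its direction. All 10 satellite cell markers listed passed the filter. Both cKO arrays were below both control arrays in 3 of them and above in 0, against 12.1% and 8.53% of all genes. Among the 3, Chrdl2 read 999 and 2086 in control and 476 and 91.3 in cKO. The summed signal of the 10 was high on every array, at 18344 and 26252 in control and 17857 and 19008 in cKO. Endothelial markers, by contrast, summed to 11046 and 10097 on control and cKO replicate 1 and to 1359 and 1536 on control and cKO replicate 2, so they went with the replicate number in both genotypes. The sums of pericyte and smooth muscle markers did so too. They were 18455 and 21155 on control and cKO replicate 1 and 13044 and 10382 on replicate 2. Rgs5 made up a large part of this, at 5200 and 442 in control and 4828 and 649 in cKO. Tagln (1104 and 2013), Notch3 (2700 and 3709) and Des (1349 and 1931) were higher on control 2 than on control 1. The other genes of this list were lower on replicate 2 in both genotypes. Of 8 fibro-adipogenic markers listed, 7 had a probe set and 5 passed the filter. The brightest were Col3a1 (5419 and 7335 in control, 6526 and 6944 in cKO) and Gsn (6245 and 7294 in control, 5843 and 6065 in cKO). Pdgfra, at 40.8 and 36.0 in control and 50.9 and 58.2 in cKO, was below the filter signal of 63.9 on every array. Cd248, at 53.7 and 24.6 in control and 77.2 and 8.73 in cKO, was not kept either. The fibro-adipogenic markers summed to 18626 and 22315 in control and to 18805 and 20394 in cKO. Muscle fibre markers summed to 4097 and 1891 in control and to 2142 and 3228 in cKO. Leukocyte markers summed to 1321, 3013, 1735 and 699 on control 1, control 2, cKO 1 and cKO 2, and 3 of their 15 genes stayed below the filter on every array. In sorted bulk samples, fewer cells of a type and less RNA per cell cannot be told apart.

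No member passed the test between genotypes. The test took probe sets at or above a mean signal of 63.9 (the median over the array, on the log2 scale), in all 22519, and among them 19 of the 23 member probe sets. Of the 22519, 0 (0%) passed at a limma adjusted p under 0.05. Without adjustment, 163 (0.724%) had p under 0.05, including 1 member probe set, which belongs to Nr4a2. An exact permutation test (2-sided) on 2 against 2 samples cannot give a p below 0.33. As a description, both cKO arrays lay above both control arrays in 6 of the 19 kept member probe sets, against 7.87% of all kept probe sets. All 6 belonged to Nr4a3 (3), Nr4a2 (2) and Crem (1), and probe sets of 1 gene measure the same transcripts and are not independent. The cKO arrays were both below the control arrays in 1 of the 19, a Creb1 probe set, against 13.5% of all, and the other 12 overlapped, as did 78.6% of all. The background followed the scaling: it was 11.1% above and 10.6% below after quantile normalization, and 11.9% and 8.61% with arrays centred on their median, where the members gave 5 above and 2 below, and 7 above and 1 below. The members were proposed with results of these data known, so these counts describe them and support nothing further.

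**Figure D1:**
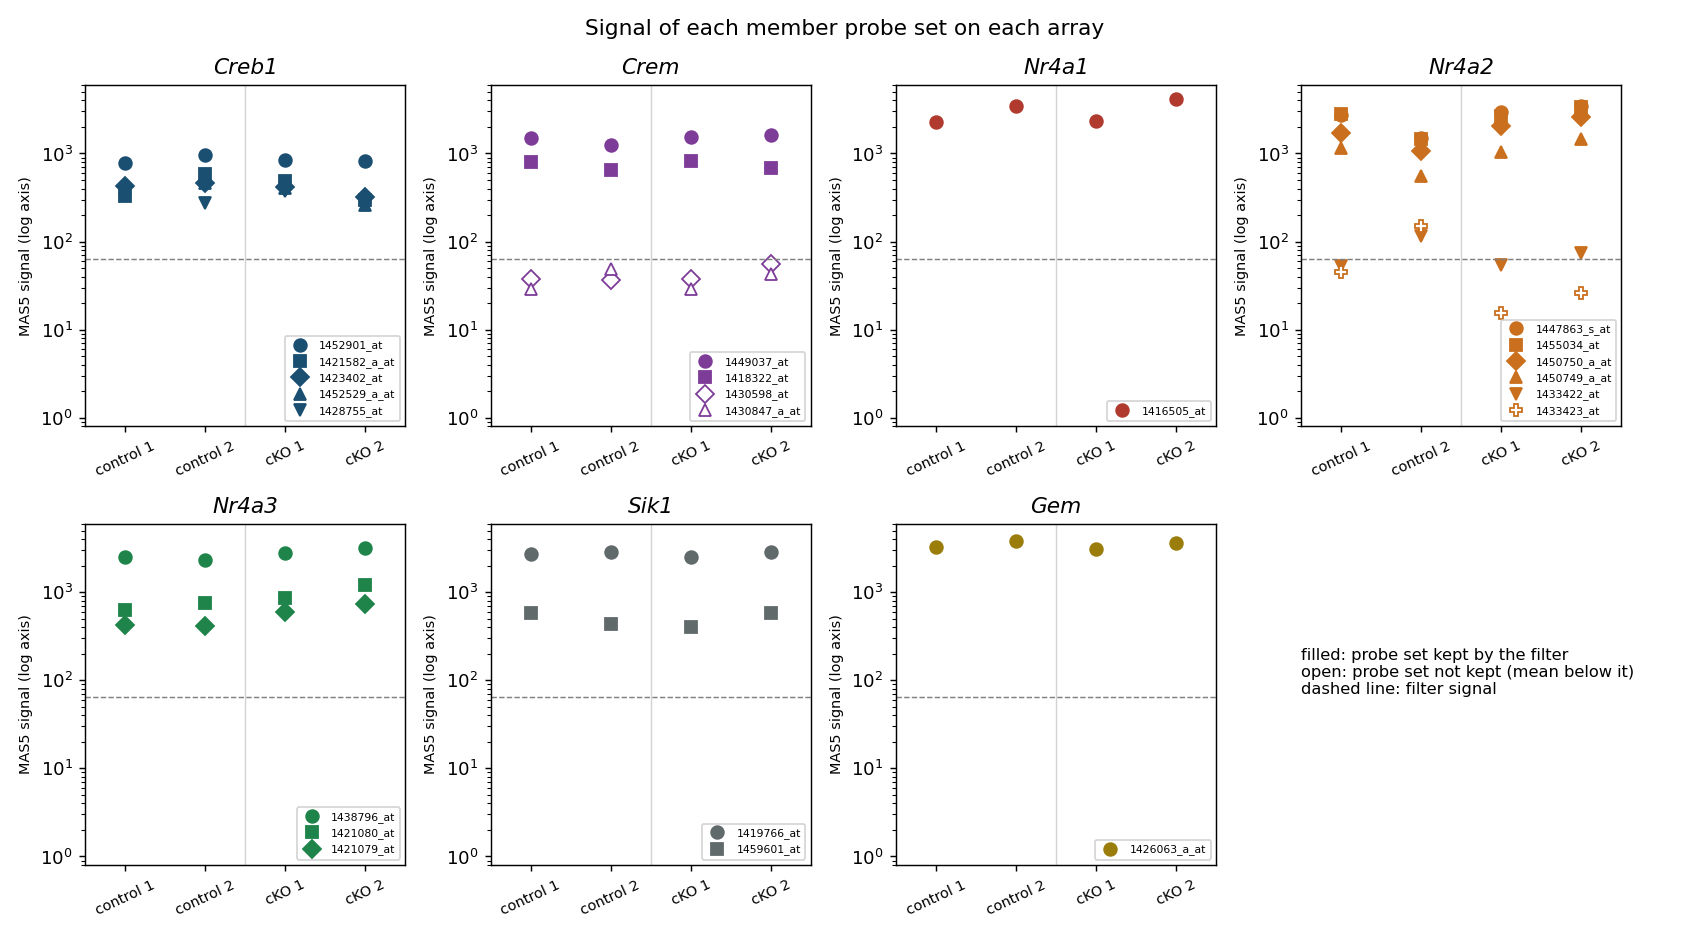
MAS5 signal on a log axis of each member probe set (marker shape) on the 4 arrays, by gene; the dashed line is the filter signal of 63.9, open markers are probe sets that were not kept, and the dimmest Creb1 probe set is not drawn. The 3 Nr4a3 probe sets were higher on both cKO arrays, the 4 bright Nr4a2 probe sets were lowest on control 2, and Nr4a1 was brightest on control 2 and cKO 2.

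For the factors that bind the CRE, no difference between genotypes passed the test, and Atf1 had no value. Creb1, which encodes the best-known CRE activator, had 5 kept probe sets, all with log2 differences below 0, from -0.40 to -0.062, of which 2 turned above 0 with arrays centred on their median. Its brightest probe set (1452901_at) read 782 and 955 in control and 837 and 811 in cKO. The cKO values lay inside the control range (log2 difference -0.069, SE 0.26, limma adjusted p = 0.99999), and this is a probe set whose sign turned (0.023). Probe set 1423402_at read 433 and 459 in control and 421 and 322 in cKO, the only Creb1 probe set without overlap. Probe set 1452529_a_at, with 401 and 457 in control and 401 and 261 in cKO, had the largest Creb1 difference (-0.40, SE 0.34, limma adjusted p = 0.99999). Both of these differences lay mainly between the arrays numbered 2, at -0.51 and -0.80, against -0.041 and 0.0015 between the arrays numbered 1. Probe set 1421582_a_at even had opposite signs, with 333 and 584 in control and 482 and 293 in cKO, or 0.53 between the arrays numbered 1 and -0.99 between those numbered 2. Probe set 1428755_at followed the replicate number, with 387 and 379 on control 1 and cKO 1 and 274 and 257 on control 2 and cKO 2. The sixth Creb1 probe set (1421583_at) read between 0.017 and 1.39 and was not kept. The Creb1 probe sets thus did not share a pattern over the 4 arrays.

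Crem encodes a CREB relative with activator forms and short repressor forms called ICER, which start from an internal cAMP-inducible promoter; the sources used here do not say which forms each probe set reads. Its brightest probe set (1449037_at) read 1504 and 1263 in control and 1535 and 1616 in cKO. Both cKO arrays were above both control arrays, by only 31.8 signal units at the closest (log2 difference 0.19, SE 0.21, limma adjusted p = 0.99999). After quantile normalization the arrays overlapped, and without control replicate 2 the difference was 0.067. Probe set 1418322_at read 805 and 653 in control and 826 and 676 in cKO, so it was higher on the arrays numbered 1 in both genotypes and differed by 0.044 between genotypes (SE 0.28, limma adjusted p = 0.99999). The other Crem probe sets, 1430598_at and 1430847_a_at, read from 28.7 to 56.1 and were not kept.

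Nr4a3, which encodes the nuclear receptor NOR1, was higher on both cKO arrays by each of its 3 probe sets, without passing the test. Probe set 1438796_at, the brightest, read 2479 and 2296 in control and 2762 and 3151 in cKO. Probe set 1421080_at read 633 and 761 in control and 857 and 1198 in cKO. Probe set 1421079_at read 425 and 410 in control and 590 and 733 in cKO. The groups did not overlap on any of them, and cKO 2 was the highest array on each. The differences were 1.24-fold (log2 0.31, SE 0.17), 1.46-fold (log2 0.55, SE 0.29) and 1.57-fold (log2 0.65, SE 0.29), and each had a limma adjusted p of 0.99999, with unadjusted p of 0.109, 0.0954 and 0.0579. They stayed apart on all 3 under quantile normalization or with centred arrays. Leaving out each array in turn kept every difference above 0, from 0.21 to 0.81, and those without cKO replicate 2 were the smallest for each probe set, at 0.21, 0.30 and 0.50. The cKO array was higher within each replicate number too, by 0.16, 0.44 and 0.47 between the arrays numbered 1 and by 0.46, 0.65 and 0.84 between those numbered 2. The median of all kept probe sets was 0.046 between the arrays numbered 1 and -0.16 between those numbered 2.

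Nr4a2 encodes NURR1, the family member best known from dopaminergic neurons. Its 4 bright probe sets had log2 differences from 0.59 to 0.78, and these rested on control replicate 2. In the array maker's naming, _s marks probe sets that can match transcripts of more than 1 gene and _a those that match several transcripts of 1 gene. Probe set 1447863_s_at read 2726 and 1508 in control and 2926 and 3454 in cKO. Probe set 1450750_a_at read 1692 and 1069 in control and 2057 and 2578 in cKO. On these probe sets cKO was above control on both arrays, at 1.57-fold (log2 0.65, SE 0.28, limma unadjusted p = 0.0535 and adjusted p = 0.99999) and 1.71-fold (log2 0.78, SE 0.27, limma unadjusted p = 0.0225 and adjusted p = 0.99999). Probe sets 1455034_at (2774 and 1444 in control, 2695 and 3349 in cKO) and 1450749_a_at (1145 and 557 in control, 1033 and 1454 in cKO) overlapped, since control 1 was above cKO 1. Control replicate 2 was the lowest array on all 4. Without it the 4 differences were 0.22, 0.45, 0.12 and 0.098, in the order given here, against 1.08, 1.11, 1.06 and 1.14 without control replicate 1. Between the arrays numbered 1 the differences ran from -0.15 to 0.28, and between those numbered 2 from 1.19 to 1.38. Control replicate 2 also had the highest summed signals of leukocyte, satellite cell and fibro-adipogenic markers given above. It had the lowest of endothelial and of muscle fibre markers. The part of these signals in the low Nr4a2 signal was not tested. The remaining Nr4a2 probe sets were dim and went the other way. Probe set 1433422_at read 53.1 and 116 in control and 54.1 and 74.2 in cKO (log2 difference -0.31, SE 0.51), and 1433423_at, which was not kept, read 44.6 and 151 in control and 15.3 and 26.3 in cKO. The dim probe sets were therefore highest on control 2, the array on which the bright ones were lowest.

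Nr4a1, which encodes NUR77, had 1 probe set (1416505_at), with 2293 and 3452 in control and 2307 and 4182 in cKO. It was higher on replicate 2 in both genotypes, by 0.59 in control and 0.86 in cKO on the log2 scale, and the groups overlapped. The genotype difference was 0.14 (SE 0.31, limma adjusted p = 0.99999), 0.0089 between the arrays numbered 1 and 0.28 between those numbered 2. It turned to -0.15 without control replicate 1 and to -0.29 without cKO replicate 2. The 3 Nr4a genes, each with 4 CRE half-sites in the window shown above, did not all share a pattern over the 4 arrays. Nr4a1 was brighter on both replicates 2. The brightest probe sets of Nr4a2 and Nr4a3 had the same order, from control 2 as the lowest through control 1 and cKO 1 to cKO 2. They differed in size, with a log2 difference of control 2 minus control 1 of -0.85 for Nr4a2 and -0.11 for Nr4a3. Not every other probe set had this order. Control 1 was the lowest array on Nr4a3 1421080_at and lay above cKO 1 on Nr4a2 1455034_at and 1450749_a_at.

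**Figure D2:**
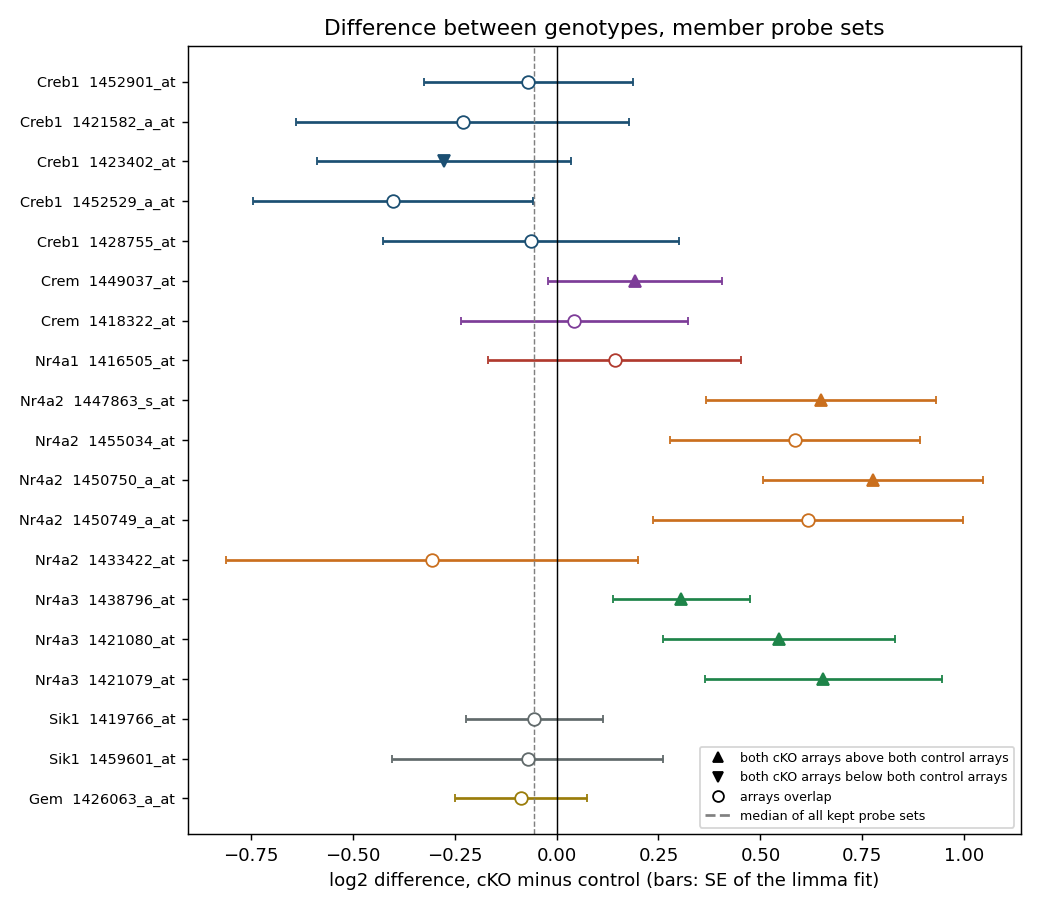
Log2 difference, cKO minus control, of the 19 kept member probe sets with the SE of the limma fit (2 arrays a group); triangles mark probe sets whose arrays did not overlap between groups and open circles those that did. The Nr4a3 differences of 0.31 to 0.65 and the bright Nr4a2 differences of 0.59 to 0.78 lie to the right, while Creb1, Sik1 and Gem lie below 0 with bars that reach it, except that of Creb1 1452529_a_at.

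Sik1 and Gem, which act downstream of cAMP in other ways, did not separate the genotypes. Sik1, whose kinase restrains CRTC coactivators, read 2706 and 2863 in control and 2483 and 2892 in cKO (probe set 1419766_at, its brightest). These arrays overlapped (log2 difference -0.054, SE 0.17, limma adjusted p = 0.99999), and the sign turned with centred arrays (0.038). Its other probe set (1459601_at) read 584 and 438 in control and 403 and 575 in cKO, with -0.53 between the arrays numbered 1 and 0.39 between those numbered 2. Gem encodes a small GTPase of the RGK group that inhibits voltage-gated calcium channels. It read 3267 and 3826 in control and 3099 and 3579 in cKO (1426063_a_at), a log2 difference of -0.086 (SE 0.16, limma adjusted p = 0.99999) that turned to 0.0061 with centred arrays. Like Nr4a1, Gem was brighter on replicate 2 of each genotype, by 0.23 in control and 0.21 in cKO.

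**Figure D3:**
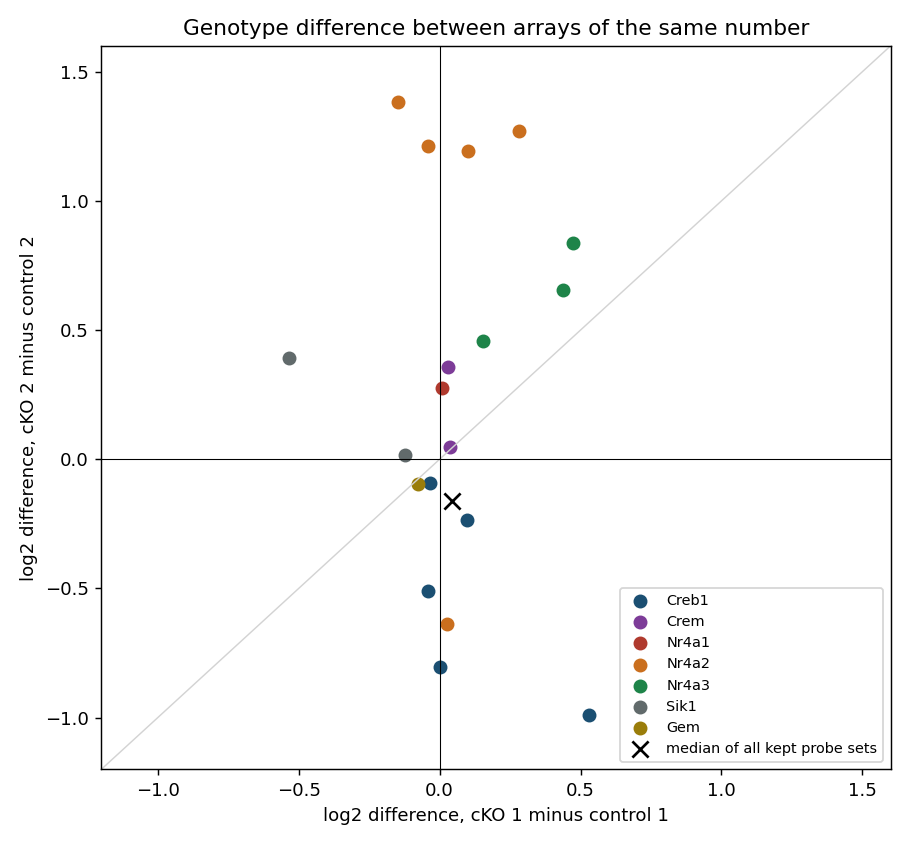
Log2 difference cKO minus control between the arrays numbered 1 (x axis) and between those numbered 2 (y axis) for the 19 kept member probe sets, coloured by gene, with the median of all kept probe sets as a cross at 0.046 and -0.16. Nr4a3 lies above 0 on both axes, the 4 bright Nr4a2 probe sets lie at 1.19 to 1.38 on the y axis and from -0.15 to 0.28 on the x axis, and Creb1 1421582_a_at lies at 0.53 and -0.99.

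The genes with the profile over the 4 arrays nearest to each of 4 members were found by the root mean square difference of centred log2 signals, among 6668 or 6669 genes that varied by at least 0.5. With only 4 arrays many genes share a profile, so these are descriptions. The Nr4a3 and Crem probe sets themselves varied by only 0.46 and 0.36. Genes that varied as little as these were left out, so nearer profiles may exist among them. Nearest to Nr4a1 were Tspyl4 (0.025), Cdkn1b (0.026), which encodes the cyclin-dependent kinase inhibitor p27, and Cdip1 (0.033). Cdkn1b read 1559 and 2276 in control and 1492 and 2757 in cKO. Nearest to the brightest Nr4a2 probe set were Stard9 (0.058), Cxadr (0.063) and Casq1 (0.088). Nearest to Nr4a3 were Itpripl2 (0.045), Chd7 (0.047), which encodes a chromatin remodeller, and Proser1 (0.048), and nearest to Crem were Secisbp2l (0.056), Fbxo22 (0.056) and Tmf1 (0.064).

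Transcripts of the proteins that work with CREB had differences of either sign, and none passed the test. Of 25 listed partners, 21 had a kept probe set, of which 6 were higher and 15 lower in cKO, with a median log2 difference of -0.085, beside -0.043 over all 10140 genes. With centred arrays the median of the partners was 0.0078. By limma, 0 of 21 partners had an adjusted p under 0.05, and 0 had p under 0.05 before adjustment, against 0.72% of all genes. Both cKO arrays were above both control arrays in 1 of 21 and below in 3, against 8.53% and 12.1% of all genes. The coactivator gene Crtc1 read 135 and 186 in control and 107 and 110 in cKO (log2 difference -0.54, SE 0.37), while its relatives Crtc2 and Crtc3 overlapped between the groups. Creb3l1, a membrane-bound relative of CREB, read 163 and 252 in control and 212 and 77.0 in cKO. Atf4, the factor of the integrated stress response, read 4610 and 4194 in control and 3620 and 4276 in cKO, and Creb5 read 912 and 818 in control and 1065 and 460 in cKO. Crebl2 read 236 and 155 in control and 137 and 193 in cKO. The histone acetyltransferase genes Crebbp and Ep300 differed by -0.060 and -0.025 and overlapped. Sik2 and Sik3, the relatives of Sik1, differed by -0.18 and 0.040 and overlapped as well.

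Other genes known to be induced by cAMP showed no common direction. Of 29 listed, 26 had a kept probe set, of which 12 were higher and 14 lower in cKO (median log2 difference -0.037). This median turned to 0.055 with centred arrays, to 0.23 without control replicate 2 and to 0.15 without cKO replicate 1. None had a limma adjusted p under 0.05, and 1 had an unadjusted p under 0.05, as did 0.72% of all genes. Both cKO arrays were above both control arrays in 5 of 26 and below in 2, against 8.53% and 12.1% of all genes. Bdnf, a neurotrophin gene with a well-known CRE, read 163 and 107 in control and 269 and 261 in cKO (log2 difference 1.0, SE 0.37, limma unadjusted p = 0.0281). Gadd45b, a stress response gene, read 2136 and 1378 in control and 2464 and 2454 in cKO, with the lowest signal on control 2 as in Nr4a2. Klf4, a Krüppel-like transcription factor gene, read 4086 and 4192 in control and 5468 and 4600 in cKO. Ppargc1a, the gene of a coactivator of mitochondrial biogenesis, was dim, at 78.1 and 67.4 in control and 116 and 119 in cKO. Pde10a, which encodes a phosphodiesterase, read 239 and 492 in control and 294 and 89.0 in cKO and overlapped. Of the 26 genes, 16 were brighter on replicate 2 than on replicate 1 in both genotypes, as Nr4a1 was, and 4 were dimmer there in both, against 27.7% and 25.8% of all genes. Among the 16, Btg2 read 2196 and 3646 in control and 2169 and 3371 in cKO, and Dusp1 3906 and 4986 in control and 3896 and 4777 in cKO. Egr1, also among them, read 6030 and 6717 in control and 5978 and 6783 in cKO, while Fosb was not, at 5587 and 5609 in control and 5335 and 5283 in cKO. The summed endothelial and the summed pericyte and smooth muscle signals given above moved with the replicate number in the opposite direction. Their part in this was not tested.

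**Figure D4:**
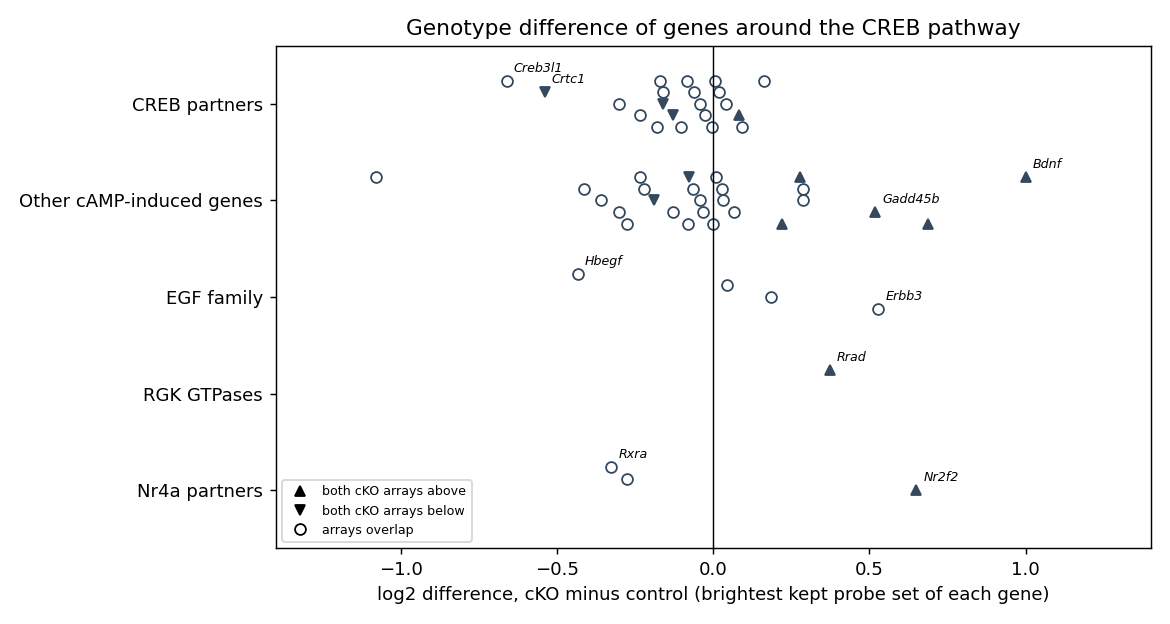
Log2 difference, cKO minus control, of the brightest kept probe set of each gene in the 5 lists around the pathway; triangles mark genes whose arrays did not overlap between groups and open circles those that did. The genes more than 0.5 from 0 are Bdnf at 1.0, Ppargc1a at 0.69, Nr2f2 at 0.65, Erbb3 at 0.53, Gadd45b at 0.52, Crtc1 at -0.54, Creb3l1 at -0.66 and Pde10a at -1.08.

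Relatives of the targets gave few values. In the EGF family, to which Areg belongs, 4 of 11 genes were kept (median log2 difference 0.12), and all 4 overlapped between the groups. The median turned to -0.17 without a filter, to -0.19 without control replicate 1, to -0.092 without control replicate 2 and to -0.17 without cKO replicate 1. The receptor gene Egfr read 1058 and 2062 in control and 1575 and 1796 in cKO, and the ligand gene Hbegf read 1145 and 772 in control and 881 and 549 in cKO. Erbb3 read 152 and 35.7 in control and 161 and 71.2 in cKO, and Adam17, the protease that sheds several EGF ligands, read 406 and 594 in control and 634 and 404 in cKO. Of the RGK relatives of Gem, Rrad was kept, at 383 and 302 in control and 397 and 490 in cKO (log2 difference 0.37, SE 0.32). Among nuclear receptors known to interact with NR4A proteins, 3 of 5 were kept. Their median log2 difference was -0.28, and it was -0.66 without control replicate 1 and 0.086 without control replicate 2. Nr2f2 read 775 and 354 in control and 821 and 826 in cKO, again with control 2 as the low array. Rxra read 181 and 287 in control and 166 and 199 in cKO, and Rxrb read 303 and 724 in control and 377 and 396 in cKO, with control 2 as the high array in both. None of these 8 genes had an unadjusted limma p under 0.05.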

How the data were processed

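Total RNA of sorted cells was labelled with biotin by a small sample assay and hybridised to 1 array per sample, per the labels' protocols. The authors deposited 1 MAS5 intensity per probe set and array, on a linear scale, per the submitters' processing notes; the scaling target and version are not given in the sources used here. MAS5 sets perfect-match against mismatch probes within a probe set. Of 45101 probe sets, 64 were AFFX controls and left out, 34945 had 1 gene symbol in the platform annotation, 932 several and 9160 none. Signals were analysed as log2(signal + 1) without further normalization, so differences of low signals are understated, while means and SDs are of signals. Probe sets with a mean log2 value at or above the median of all were kept (22519 probe sets, 10140 genes, the brightest probe set per gene). Groups were compared with limma 3.58.1 in R 4.3.3 (lmFit, eBayes with an intensity trend, 2-sided, Benjamini-Hochberg over all kept probe sets). The code was run on simulated arrays with independent noise. Such noise lacks the variation by replicate number seen here, so the run does not show how the test behaves on these arrays. Adjusted p-values of list genes are over all kept probe sets. Members under the filter are values only. Named were all members, up to 5 genes per list by smallest p, other genes as examples chosen after their values were seen, and 3 nearest profiles for each of 4 members. Signals of different probe sets were not compared as levels. Members and lists were chosen with earlier results of these data known. Alternatives were other scalings, a pseudocount of 32, other filters, no trend, a replicate block, other choices of probe set and leaving out each array. P-values measure the spread between samples whose separate animals are not stated. Sequences are from RefSeq, GRCm38.p6.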

Additional observations from a re-analysis of the deposited data

How the results depend on the processing

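No member probe set was called under any of the alternatives run. Of the member genes' brightest probe sets, Crem, Nr4a2 and Nr4a3 kept their sign in every alternative run. The other kept Crem probe set, 1418322_at, turned to -0.11 without control replicate 2 and to -0.10 without cKO replicate 1. With arrays centred on their median, Creb1 turned to 0.023, Sik1 to 0.038 and Gem to 0.0061 on the log2 scale, and the median of the CREB partners moved from -0.085 to 0.0078. It was -0.021 after quantile normalization and -0.17 with the mean over probe sets. The EGF family's median of 0.12 became -0.17 without a filter. Member probe sets below control on both cKO arrays were 1 in the main processing and 2 after quantile normalization. Without a filter, over all 23 member probe sets, 7 were above and 2 below. Leaving out each array in turn gave 7 to 10 member probe sets above and 3 to 6 below, since a lone array overlaps less often. The share over all probe sets is not given without a filter or with an array left out, so the counts of those settings say nothing about the members. For single genes, leaving out each array in turn gave -0.21 to 0.075 for Creb1, -0.29 to 0.57 for Nr4a1, -0.16 to 0.055 for Sik1, -0.20 to 0.028 for Gem, and 0.22 to 1.08 for Nr4a2. The medians ran from -0.14 to -0.041 for CREB partners, from -0.19 to 0.23 for other cAMP-induced genes, from -0.19 to 0.23 for the EGF family and from -0.66 to 0.086 for Nr4a partners. Over all probe sets, 0 were called in the main processing and 0 to 5 when an array was left out, where the remaining sample is taken to vary as the other group does. Without control replicate 1, 1 unnamed probe set was called, and without cKO replicate 1 there were 5, of Chrdl2, Ilkap, Lyz1 (2) and 1 unnamed. Counts at an unadjusted p under 0.05 were 163 in the main processing, 163 to 697 with an array left out, 878 without a filter and 88 with the filter at the 75th percentile. Probe sets at least 2-fold apart without overlap numbered 123, and 507 to 1103 with an array left out, 48 with a pseudocount of 32, 2727 without a filter and 22 with the stricter filter. By direction they were 27 higher and 96 lower, 50 and 64 after quantile normalization, and 52 and 60 with centred arrays. A replicate block called 5 probe sets, of Slc15a2, Laptm5, Pisd-ps3, Ilkap and 1 unnamed, and gave 473 at an unadjusted p under 0.05. Among members the block gave 3 Nr4a2 probe sets at an unadjusted p under 0.05, with a smallest limma p of 0.00511 (adjusted p = 0.99998). The labels do not say that a number marks a shared litter or day, and deviations of the arrays with the same number correlated at 0.434 across probe sets, which are not independent. Signals under 63.9 limit what the dim Crem, Creb1 and Nr4a2 probe sets can show.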
